A study of Mus musculus with 10 samples.

Results

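The unfolded protein response of the endoplasmic reticulum (ER) was followed in primary mouse hepatocytes through 43 genes. The members were taken by symbol from a list of ER stress genes and found by NCBI gene ID among the 18055 gene IDs in the libraries. They were chosen with earlier results of these data known, so shares set beside those of all genes only describe these libraries. All 43 passed the filter on low counts, which left 14097 genes for testing. The list held 4 sensors, 8 transcription factors, 2 subunits of the eIF2α phosphatase, 17 chaperones or foldases and 12 genes of ER-associated degradation (ERAD).

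Hepatocytes, the parenchymal cells of the liver, came from C57BL/6 mice by perfusion of the liver with collagenase and were kept in culture, and their RNA was sequenced in 5 groups of 2 libraries. The Vehicle group received no fatty acid. The PA group received 200 µM palmitate, a saturated free fatty acid (FFA), and the LA group received 12 µM linoleate, a polyunsaturated one, both for 24 h. The PA+NTP and LA+NTP groups were given Neurotropin (NTP), a non-protein extract of inflamed rabbit skin, for 1 h before the same FFA. No group received NTP alone, so the effect of NTP was measured only in the presence of an FFA. The sources used here give neither the age and sex of the mice nor whether the 2 libraries of a group came from separate animals or cultures, so the p-values measure only the spread between these libraries.

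The ER folds secreted and membrane proteins, which hepatocytes make in bulk. When unfolded proteins accumulate, the sensors IRE1α (Ern1), PERK (Eif2ak3) and ATF6 are released from the chaperone BiP (Hspa5) and signal through the transcription factors XBP1, ATF4 and cleaved ATF6. IRE1α splices Xbp1 mRNA, PERK phosphorylates eIF2α, and ATF6 is cut by site proteases in the Golgi. Their targets include ER chaperones, disulfide isomerases and the ERAD machinery that returns misfolded proteins to the cytosol, and CHOP (Ddit3) under lasting stress. Saturated fatty acids are known inducers of ER stress in liver cells. Splicing, phosphorylation and cleavage are not read by counts per gene, so the values below are levels of mRNA only.

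Library depth ranged from 13142588 to 60046937 expected counts. The label hepatocyte was borne out by its defining markers: the summed FPKM of 6 hepatocyte genes lay between 2273 and 4109, led by albumin with a mean FPKM of 2471, and was lowest in PA (2273 to 2504, against 3225 to 3431 in Vehicle). Markers of Kupffer cells or macrophages, led by Cd68 with a mean FPKM of 199.6, summed to between 158 and 357 FPKM. The sum was 158 to 160.0 in LA and 321 to 357 in PA+NTP. In PA+NTP against Vehicle, 5 of these 6 markers had log2 fold changes above 0 and 1 below, from -1.62 to 1.16. Cholangiocyte markers, nearly all Spp1, summed to 407 to 704. Stellate and endothelial lists stayed at or below 41.4 and the T or B cell list at or below 0.780. No marker was at 0 in all libraries. In bulk RNA, fewer cells of a type and less RNA per cell cannot be told apart, and the part of these cell types in the results was not tested. The libraries also differed in how expression followed the GC content of transcripts. Across 13925 genes, Spearman's rho of a library's deviation with GC was -0.574 to -0.473 in the 4 libraries given an FFA alone and 0.346 to 0.576 in the other 6. This trend moved with the groups. Calls, counts and the results that were lost or turned are therefore also given after the trend was removed from each library.

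The members ran from the 23.6th to the 99.3rd percentile of mean FPKM among the genes tested, with the second lowest, Ero1lb, at the 40.5th. Mean FPKM over the 10 libraries was highest for Calr (816), the calcium-binding chaperone calreticulin, followed by Hspa5 (748), Pdia3 (471), Hsp90b1 (418) and P4hb (259), which all lay above the 98th percentile of the genes tested. The order of Calr and Hspa5 changed with the group, since Hspa5 exceeded Calr in both PA libraries and in both LA libraries. Derl3, a derlin of the ERAD channel, was lowest, with FPKM between 0.68 and 2.01 and only 31 to 83 expected counts. The 5 most abundant members were thus all chaperones or foldases. Among the regulators Atf4 was highest (mean FPKM 126) and Crebrf lowest (5.89).

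**Figure D1:**
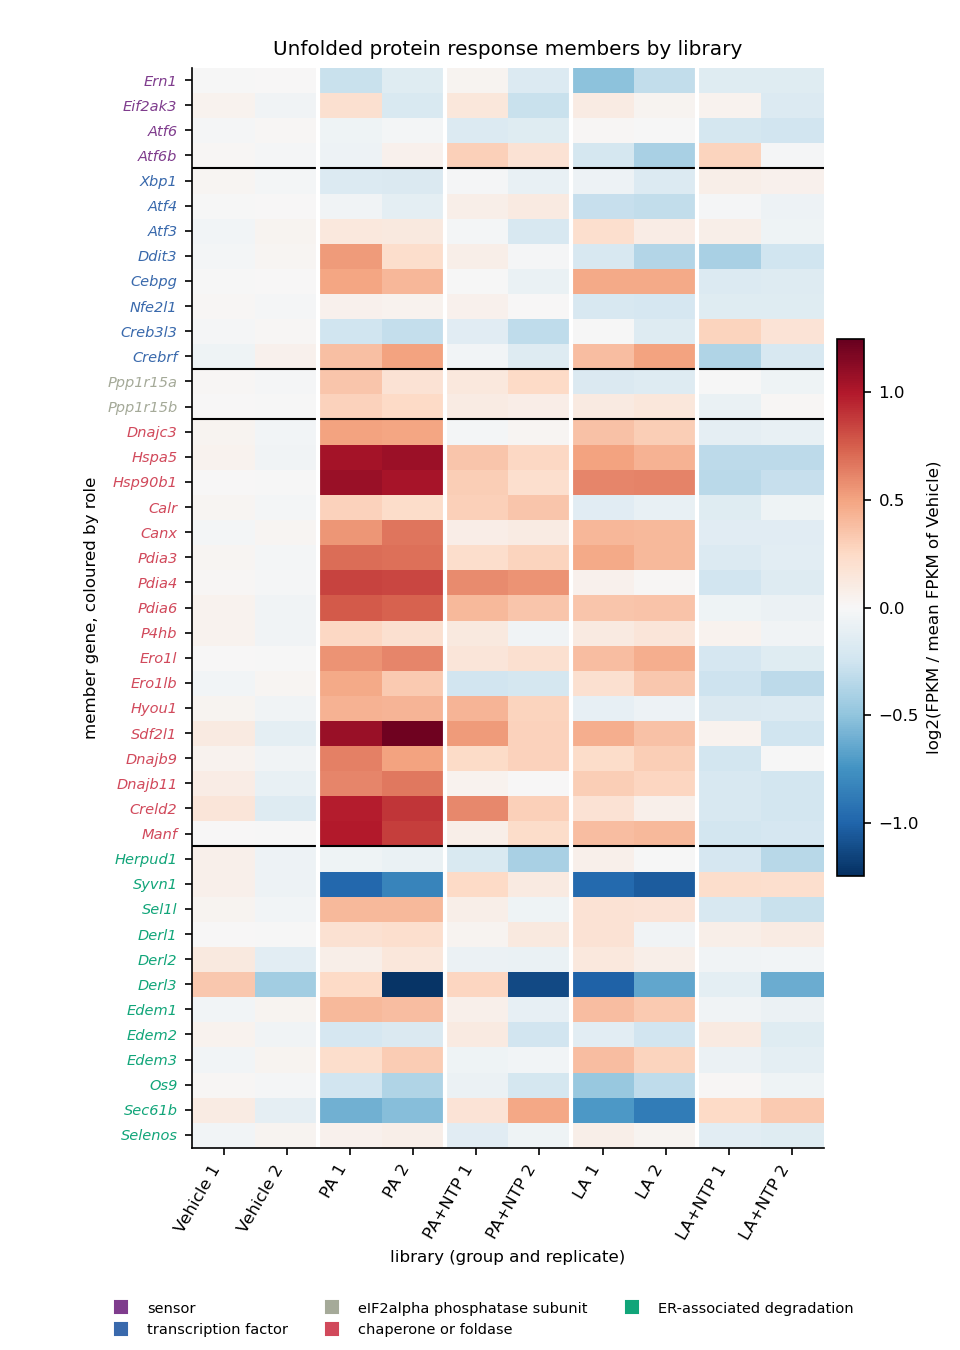
The 43 members (rows, coloured by role) in the 10 libraries (columns), as log2 of FPKM over the mean FPKM of the 2 Vehicle libraries. The chaperone block is red in PA, paler in LA and PA+NTP and near white or pale blue in LA+NTP, whereas Syvn1 and Sec61b are blue in PA and LA.

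The first comparison asked what palmitate did to the response. Palmitate raised most of the ER chaperones and left their regulators below the threshold. A gene was called where its edgeR adjusted p lay under 0.05 and its change reached 1.5-fold. By this rule 12 of the 43 members (27.9%) were higher in PA than in Vehicle, against 6.00% of all genes tested. Lower calls numbered 1 of 43 (2.33%), against 8.92% of all genes. All 12 higher calls were chaperones or foldases. The median log2 fold change was 0.64 over the 17 chaperones or foldases (range 0.26 to 1.20), 0.30 over the 43 members and -0.01 over all genes. By adjusted p alone, 26 members were higher, against 23.5% of all genes, among them all 17 chaperones or foldases, and 4 were lower, against 22.0%.

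The master chaperone Hspa5 and the luminal chaperone Hsp90b1 moved most in absolute terms. Hspa5 (BiP, chromosome 2, 34772090 to 34776529, GRCm38.p6), which binds unfolded chains and restrains the sensors, had FPKM of 592.55 and 558.11 in Vehicle and 1183.51 and 1207.09 in PA. Hsp90b1 (GRP94, chromosome 10, 86690841 to 86705444), the ER paralog of HSP90, measured 315.99 and 315.30 in Vehicle and 666.06 and 646.69 in PA. Both PA libraries lay far above both Vehicle libraries for each gene. The log2 fold change was 1.09 ± 0.06 (SE) for Hspa5 and 1.09 ± 0.06 for Hsp90b1, each a 2.13-fold rise (edgeR adjusted p = 2.74e-08 and 2.09e-08).

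Less abundant genes of the same luminal set rose as well. Sdf2l1 (chromosome 16, 17130138 to 17132383), a partner of the BiP cycle, went from 11.10 and 9.41 FPKM in Vehicle to 21.68 and 23.87 in PA, the largest change of any member (log2 fold change 1.20 ± 0.13, edgeR adjusted p = 6.64e-06). Creld2, a secreted and ER-resident protein induced by ER stress, measured 27.06 and 21.80 in Vehicle and 48.38 and 45.45 in PA (0.98 ± 0.11). Manf, a neurotrophic factor held in the ER, measured 49.59 and 49.15 in Vehicle and 98.24 and 90.13 in PA (0.96 ± 0.07). The groups did not overlap for any of them. With 2 libraries a group this also held for members that did not pass, such as Atf4 (edgeR adjusted p = 0.475).

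The protein disulfide isomerases, which form and reshuffle disulfide bonds, followed with smaller changes. Pdia4 had FPKM of 69.56 and 67.95 in Vehicle and 123.65 and 122.92 in PA, a log2 fold change of 0.88 ± 0.06. Pdia6 went from 140.95 and 132.03 to 232.75 and 227.04 (0.79 ± 0.06). Pdia3, which serves glycoproteins bound by calnexin, went from 395.93 and 381.49 to 630.13 and 624.40 (0.72 ± 0.06). P4hb, the founding member of the family, stayed under the fold threshold at 0.26 ± 0.06.

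The remaining palmitate calls lay close to the 1.5-fold threshold. Dnajb11, a BiP co-chaperone, measured 47.76 and 41.95 FPKM in Vehicle and 68.67 and 70.69 in PA (log2 fold change 0.64 ± 0.07). Canx (calnexin), the membrane lectin chaperone, measured 147.26 and 152.64 in Vehicle and 220.40 and 237.95 in PA (0.64 ± 0.06). Ero1l, the oxidase that recharges the disulfide isomerases and is named Ero1a in the current table, measured 14.69 and 14.58 in Vehicle and 21.56 and 22.31 in PA (0.62 ± 0.06). In Dnajb9, a co-chaperone that binds IRE1α, FPKM was 29.92 and 28.21 in Vehicle and 45.09 and 41.16 in PA (0.60 ± 0.08). Without the second Vehicle library Dnajb9 (0.55) and Dnajb11 (0.53) lost their calls, and Dnajb9 also lost it without the first PA library (0.53). The 5 chaperones or foldases under the threshold were Dnajc3, Hyou1, Ero1lb, Calr and P4hb, with log2 fold changes of 0.53, 0.46, 0.42, 0.30 and 0.26.

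**Figure D2:**
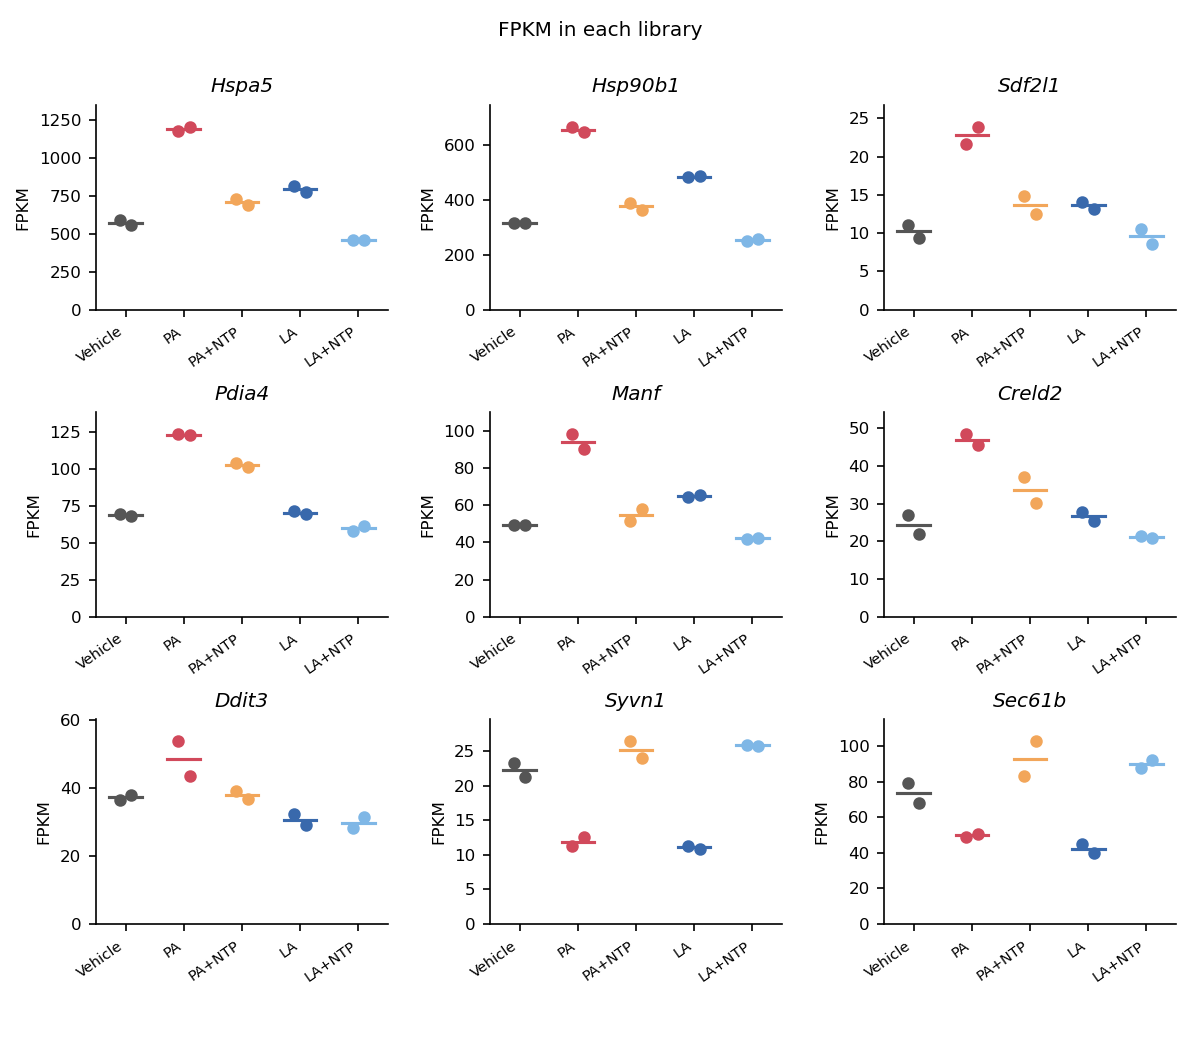
FPKM of 9 members in each library (points) with the group mean (line), by group and on axes that start at 0. Hspa5, Hsp90b1, Sdf2l1, Manf and Creld2 are highest in PA, Pdia4 remains high in PA+NTP, and Syvn1 and Sec61b are lowest in PA and LA.

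After the GC trend was removed the palmitate count was again 12 higher, against 3.68% of all genes, and none was lower, against 4.78%. The members were not all the same. Calls were kept by 9 of the 12: Sdf2l1 (log2 fold change 1.51), Creld2 (1.21), Manf (1.04), Hspa5 (1.01), Hsp90b1 (0.87), Pdia4 (0.81), Pdia6 (0.78), Dnajb11 (0.70) and Pdia3 (0.63). The 3 that dropped out had transcripts poor in GC: Canx (42.2% GC, 0.36), Ero1l (41.6%, 0.32) and Dnajb9 (40.6%, 0.26). The 3 that came in were richer in GC: Hyou1 (53.9%, 0.66), an HSP110-type chaperone of the ER, Ddit3 (55.4%, 0.65) and Ppp1r15a (56.6%, 0.60), which encodes GADD34. All 17 chaperones or foldases kept a positive sign, with a median of 0.66. The adjusted p was passed by 16, all but Ero1lb (0.22), beside 4444 of all 14097 genes.

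**Figure D3:**
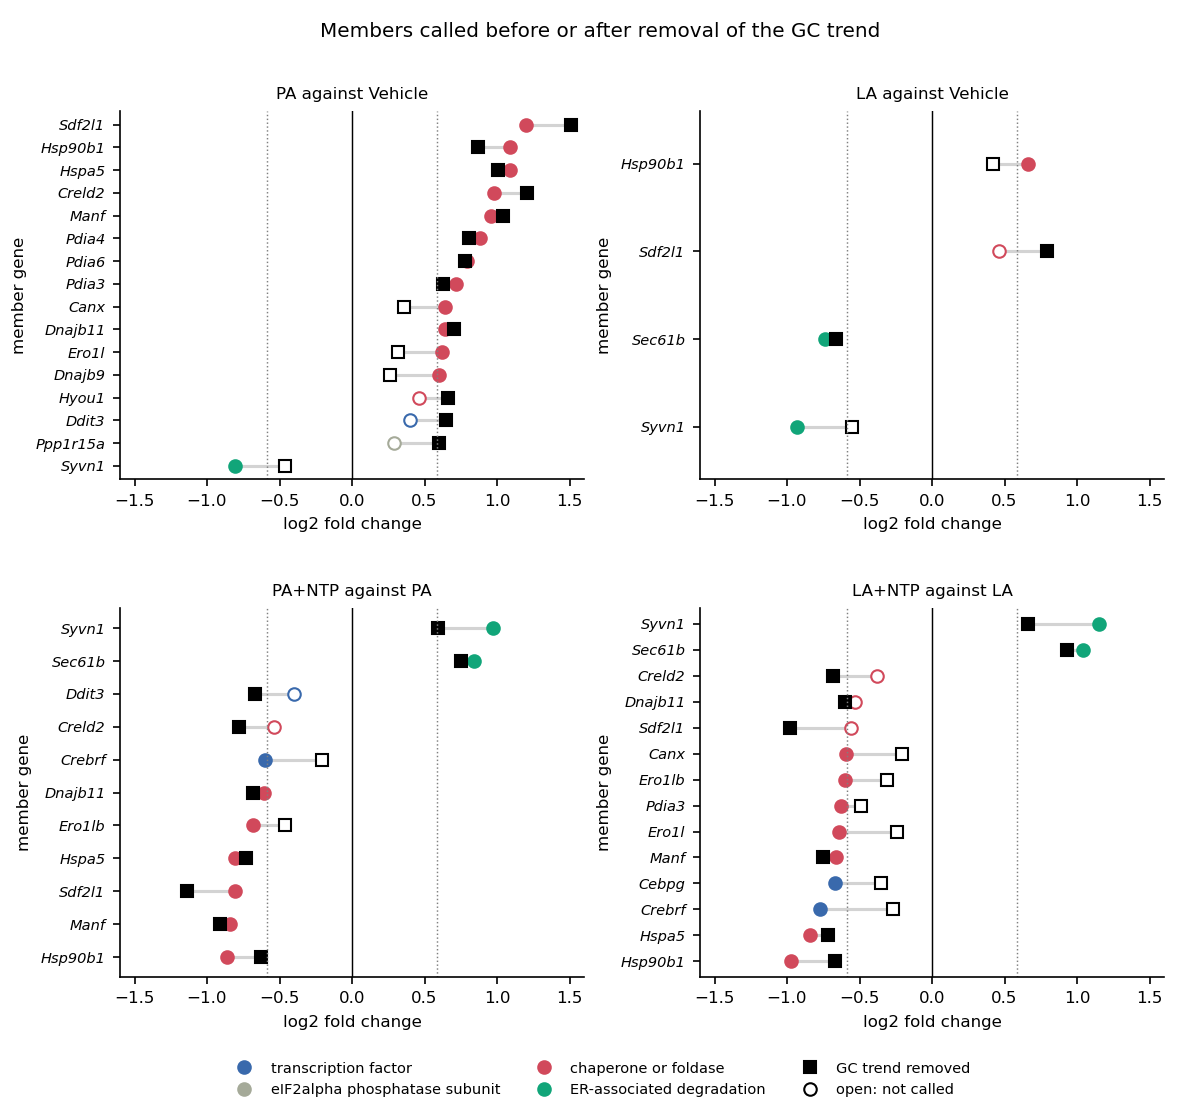
Log2 fold change of each member called before (circles) or after (black squares) removal of the GC trend in 4 comparisons, with open symbols where the member was not called and dotted lines at the 1.5-fold threshold. Hspa5, Manf and Sec61b shift little, Sdf2l1 and Creld2 move outward, and Canx, Ero1l, Crebrf and Syvn1 move toward 0.

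Several of the chaperones, called with palmitate or not, carry the ER stress response element (ERSE) in the RefSeq promoter window. This window runs from 250 bases before the start to 50 after it. The ERSE is read as CCAAT, 9 bases of any kind and CCACG, on either strand, and is known as a site of ATF6 with NF-Y. A window was found for 38 members, and 10 of these (26.3%) held the motif, against 37 of 27025 genes (0.137%). The members were listed as known ER stress genes, so this excess is no independent evidence about them. Among the 11 members with a window that palmitate raised, 5 held it, and among the other 27 members, 5 held it. All 11 were chaperones or foldases and most of the 27 were not, so these counts also compare classes. Of the chaperones or foldases with a window 8 of 15 held it, and of the ERAD genes 2 of 11. The 8 included Dnajc3, Calr and Ero1lb, which were not called with palmitate. The stretches below come from 5 raised chaperones, from Calr, which stayed under the fold threshold, and from Syvn1, which fell with palmitate, so that windows from each outcome can be compared. They are written 5′ to 3′ on the gene's strand with the matching bases in capitals.
Hspa5: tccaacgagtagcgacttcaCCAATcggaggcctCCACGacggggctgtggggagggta
Hsp90b1: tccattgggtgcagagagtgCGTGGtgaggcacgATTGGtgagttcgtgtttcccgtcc
Creld2: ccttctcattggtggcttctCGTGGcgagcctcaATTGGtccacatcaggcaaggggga
Pdia6: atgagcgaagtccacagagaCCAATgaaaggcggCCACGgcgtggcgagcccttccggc
Canx: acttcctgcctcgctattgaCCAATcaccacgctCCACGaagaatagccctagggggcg
Calr: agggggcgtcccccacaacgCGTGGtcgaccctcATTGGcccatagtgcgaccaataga
Syvn1: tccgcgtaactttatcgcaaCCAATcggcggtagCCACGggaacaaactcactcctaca

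On GRCm38.p6 these stretches lie at chr2:34772005-34772063 (plus strand, Hspa5), chr10:86705513-86705571 (minus, Hsp90b1), chr15:88819500-88819558 (plus, Creld2), chr12:17266471-17266529 (plus, Pdia6), chr11:50325780-50325838 (minus, Canx), chr8:84847055-84847113 (minus, Calr) and chr19:6046512-6046570 (plus, Syvn1). The match ended 46 bases before the start in Hspa5 and 25 bases before it in Syvn1. Hsp90b1 held a second match farther out, which ended 193 bases before the start. The other members with an ERSE were Dnajc3, Ero1lb and Derl3. The related ERSE-II, ATTGG, 1 base and CCACG, occurred in Dnajb11 and Herpud1, and in 0.0444% of all genes. The copy of Herpud1, shown because it is an ERAD gene, reads as follows.
Herpud1: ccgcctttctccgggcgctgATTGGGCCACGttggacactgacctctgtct

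The core of the XBP1 element, TGACGTGG, was found in 1 member (Nfe2l1) and in 0.714% of all genes. The C/EBP-ATF response element used by ATF4 and CHOP, TGATGNAA, was found in 2 members (Atf3 and Herpud1) and in 4.51% of all genes. Both strands were searched for each motif, and no 2 motifs overlapped in a member. The Herpud1 stretch lies at chr8:94386357-94386407 on the plus strand, and the Dnajb11 match lay just after the start. A match is a run of letters and was not tested for binding. Sdf2l1, Pdia3 and Pdia4, which rose with palmitate, had windows without these letters, which says nothing about the factor. No window was at hand for Atf6, Ppp1r15b, Hyou1, Manf and Derl1.

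**Figure D4:**
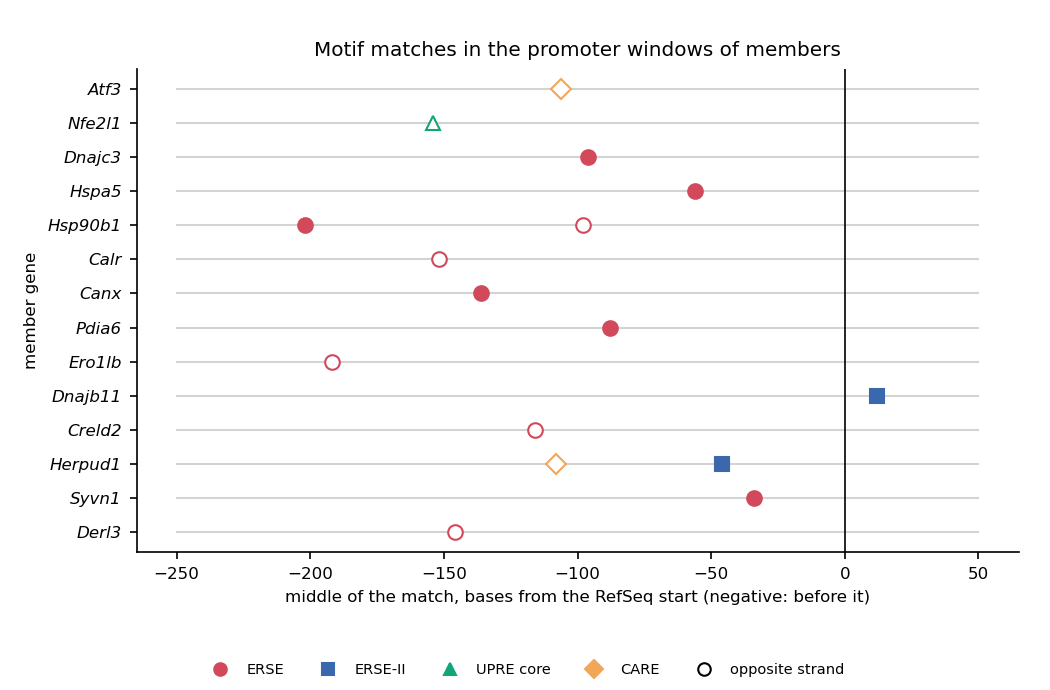
Position of each motif match in the promoter windows of the 14 members that hold one, as bases from the RefSeq start, with open symbols for matches on the strand opposite to the gene. The ERSE matches lie between 25 and 193 bases before the start, counted from the end of the match nearest to it.

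No sensor or transcription factor of the response reached the fold threshold with palmitate in the deposited counts. By adjusted p alone 4 of the 8 transcription factors passed, beside 6411 of all 14097 genes. None of the 4 sensors passed the adjusted p in the deposited counts. Ern1 had FPKM of 12.47 and 12.53 in Vehicle and 10.31 and 11.28 in PA, and Eif2ak3 had 16.63 and 15.74 in Vehicle and 18.62 and 14.23 in PA. Atf6 (17.93 and 18.25 in Vehicle, 17.41 and 17.83 in PA) and Atf6b (12.49 and 12.21 in Vehicle, 11.83 and 12.81 in PA) likewise overlapped or lay near each other between the groups. The log2 fold changes of the 4 sensors lay between -0.17 and 0.04, and with the GC trend removed Atf6b, whose transcripts hold 60.3% GC, passed the adjusted p at 0.51 (edgeR, 0.00125).

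Xbp1 mRNA did not pass the adjusted p either, with FPKM of 78.86 and 75.80 in Vehicle and 68.76 and 68.32 in PA (log2 fold change -0.14 ± 0.06, edgeR adjusted p = 0.0626). Atf4 stood at 131.24 and 132.00 in Vehicle and 127.25 and 120.83 in PA (-0.05 ± 0.06). Its partner and target Atf3 stood at 17.61 and 18.50 in Vehicle and 19.82 and 19.70 in PA (0.16 ± 0.08). Neither passed the adjusted p in the deposited counts. Atf3 passed it once the GC trend was removed (0.29, edgeR adjusted p = 0.0138) and Atf4 did not (0.15).

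Ddit3, which encodes the death-linked factor CHOP, measured 36.68 and 38.07 FPKM in Vehicle and 53.90 and 43.60 in PA. Both PA libraries lay above both Vehicle libraries, the first by much more than the second. Its log2 fold change of 0.40 ± 0.10 passed the adjusted p (edgeR, 0.00607) and not the fold threshold, which it did pass once the GC trend was removed (0.65 ± 0.11). Cebpg, a C/EBP partner of ATF4, measured 20.63 and 20.86 in Vehicle and 29.13 and 27.64 in PA (0.48 ± 0.06). Crebrf, a repressor of the ER-bound factor CREB3, measured 5.19 and 5.58 in Vehicle and 6.97 and 7.62 in PA (0.47 ± 0.08). Both of the latter passed the adjusted p only, and their transcripts are poor in GC (43.3% and 39.1%). With the trend removed the values were 0.25 for Cebpg and 0.09 for Crebrf.

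The eIF2α phosphatase subunits end the translational block set by PERK. The inducible Ppp1r15a had FPKM of 23.77 and 23.35 in Vehicle and 29.96 and 26.62 in PA, and the constitutive Ppp1r15b had 23.86 and 23.76 in Vehicle and 29.10 and 28.34 in PA. The log2 fold changes of 0.29 and 0.30 both passed the adjusted p and neither passed the fold threshold. Nfe2l1, an ER-anchored factor of proteasome genes, ranged from 40.24 to 48.47 FPKM over the 10 libraries and did not pass with palmitate (0.08) unless the GC trend was removed (0.28, edgeR adjusted p = 0.00160). The hepatic factor Creb3l3 measured 8.76 and 8.90 in Vehicle and 7.41 and 7.16 in PA (-0.25), which passed the adjusted p only and turned to 0.04 with the GC trend removed (edgeR adjusted p = 0.785).

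Of the 12 ERAD genes none was called higher with palmitate, beside 6.00% of all genes, and 1 (8.33%) was called lower, beside 8.92%. Their median log2 fold change was 0.03, and with the GC trend removed none was called in either direction. Syvn1 (chromosome 19, 6046576 to 6053718), which encodes HRD1, the ubiquitin ligase of the ERAD complex, had FPKM of 23.22 and 21.23 in Vehicle and 11.28 and 12.55 in PA. Syvn1 thus fell to near 12 FPKM in both PA libraries, with a log2 fold change of -0.81 ± 0.08 (edgeR adjusted p = 2.97e-06). Its partner Sel1l, the adaptor of HRD1, moved the other way, from 19.21 and 18.28 FPKM in Vehicle to 24.83 and 24.81 in PA (0.44 ± 0.06, under the fold threshold). Edem1 (0.43) and Edem3 (0.31), lectins that pass glycoproteins to ERAD, and Derl1 (0.23) were also higher by adjusted p alone, and Os9 (-0.28) and Sec61b (-0.52) lower. Sec61b passed the fold threshold without the second Vehicle library (-0.63). Derl2 (12.60 to 15.18 FPKM over the 10 libraries), Edem2 (17.93 to 22.94), Selenos (64.38 to 75.52), Herpud1 (30.75 to 42.54) and Derl3 did not pass the adjusted p with palmitate. With the GC trend removed, the Syvn1 value was -0.46 (adjusted p = 0.000320), under the fold threshold. Its transcripts hold 57.6% GC. Sel1l (0.40), Edem1 (0.32), Derl1 (0.24) and Sec61b (-0.43) still passed the adjusted p with the trend removed. Edem3 (0.08, edgeR adjusted p = 0.392) and Os9 did not, and Os9 turned sign (0.02, 0.851).

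The second comparison asked what linoleate did. Of the 17 chaperones or foldases 15 had values above 0 in LA against Vehicle. The fold threshold left 1 higher call of 43, against 3.53% of all genes, and 2 lower calls, against 7.11%. By adjusted p alone 19 members were higher, against 20.8% of all genes, 13 of them chaperones or foldases, and 6 were lower, against 20.5%. Their median log2 fold change was 0.38, that of the 43 members 0.15.

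Hsp90b1 was the higher call, with FPKM of 483.10 and 486.56 in LA against 315.99 and 315.30 in Vehicle (log2 fold change 0.66 ± 0.06, edgeR adjusted p = 1.86e-06). Hspa5 measured 817.52 and 778.51 in LA, above both Vehicle libraries, with a 1.43-fold change (0.52 ± 0.06). Sdf2l1 measured 14.05 and 13.18 in LA (0.46 ± 0.13), and Manf measured 64.61 and 65.45 (0.44 ± 0.07). These genes thus lay between their Vehicle and PA values.

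Other chaperones stayed near Vehicle in LA. Pdia4 measured 71.53 and 69.65 FPKM (log2 fold change 0.08 ± 0.06), Creld2 27.67 and 25.47 (0.18 ± 0.11), Hyou1 23.42 and 24.01 (-0.03 ± 0.06) and Calr 695.48 and 721.87 (-0.07 ± 0.06). None of these 4 passed the adjusted p. Pdia3, at 539.89 and 515.86, Ero1l, at 19.12 and 20.03, and Canx, at 199.71 and 198.32, passed it with values of 0.49, 0.46 and 0.45. So did Pdia6 (173.94 and 174.43, 0.40), Dnajb11 (55.57 and 54.20, 0.33), Dnajb9 (34.18 and 35.96, 0.32) and Ero1lb (5.32 and 5.85, 0.31). Once the GC trend was removed 9 of the 17 passed the adjusted p, now with Creld2 (0.41), beside 2451 of all 14097 genes. Among those lost, Canx and Ero1l stood at 0.13 each (edgeR adjusted p = 0.131 and 0.194), Ero1lb at 0.07 (0.665) and Dnajb9 at -0.05 (0.730). On the fold threshold, Hsp90b1 then stood under it (0.42) and Sdf2l1 passed it (0.79), so that 1 member was again called higher, against 1.01% of all genes. Of the lower calls 1 was left, against 2.26%.

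Both lower calls with linoleate came from the ERAD class of the list, which also holds the translocon subunit Sec61b. Syvn1 measured 11.34 and 10.81 FPKM in LA, close to its PA values, with a log2 fold change of -0.93 ± 0.08 (edgeR adjusted p = 1.86e-06) that was -0.55 with the GC trend removed. Sec61b (chromosome 4, 47474661 to 47483233), the small β subunit of the SEC61 translocon, measured 79.19 and 68.17 in Vehicle and 44.85 and 40.11 in LA (-0.74 ± 0.11). It kept the call with the trend removed (-0.66). Among regulators, Cebpg (28.71 and 28.75 FPKM) and Crebrf (7.03 and 7.62) stood near their PA levels, with values of 0.52 and 0.49, and Ern1 (8.79 and 10.08, -0.36) and Atf4 (107.49 and 106.68, -0.25) were lower than Vehicle by adjusted p alone. Cebpg (0.25) and Ern1 (-0.31) still passed with the GC trend removed, and Crebrf (0.06, edgeR adjusted p = 0.644) and Atf4 (-0.05, 0.603) did not.

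**Figure D5:**
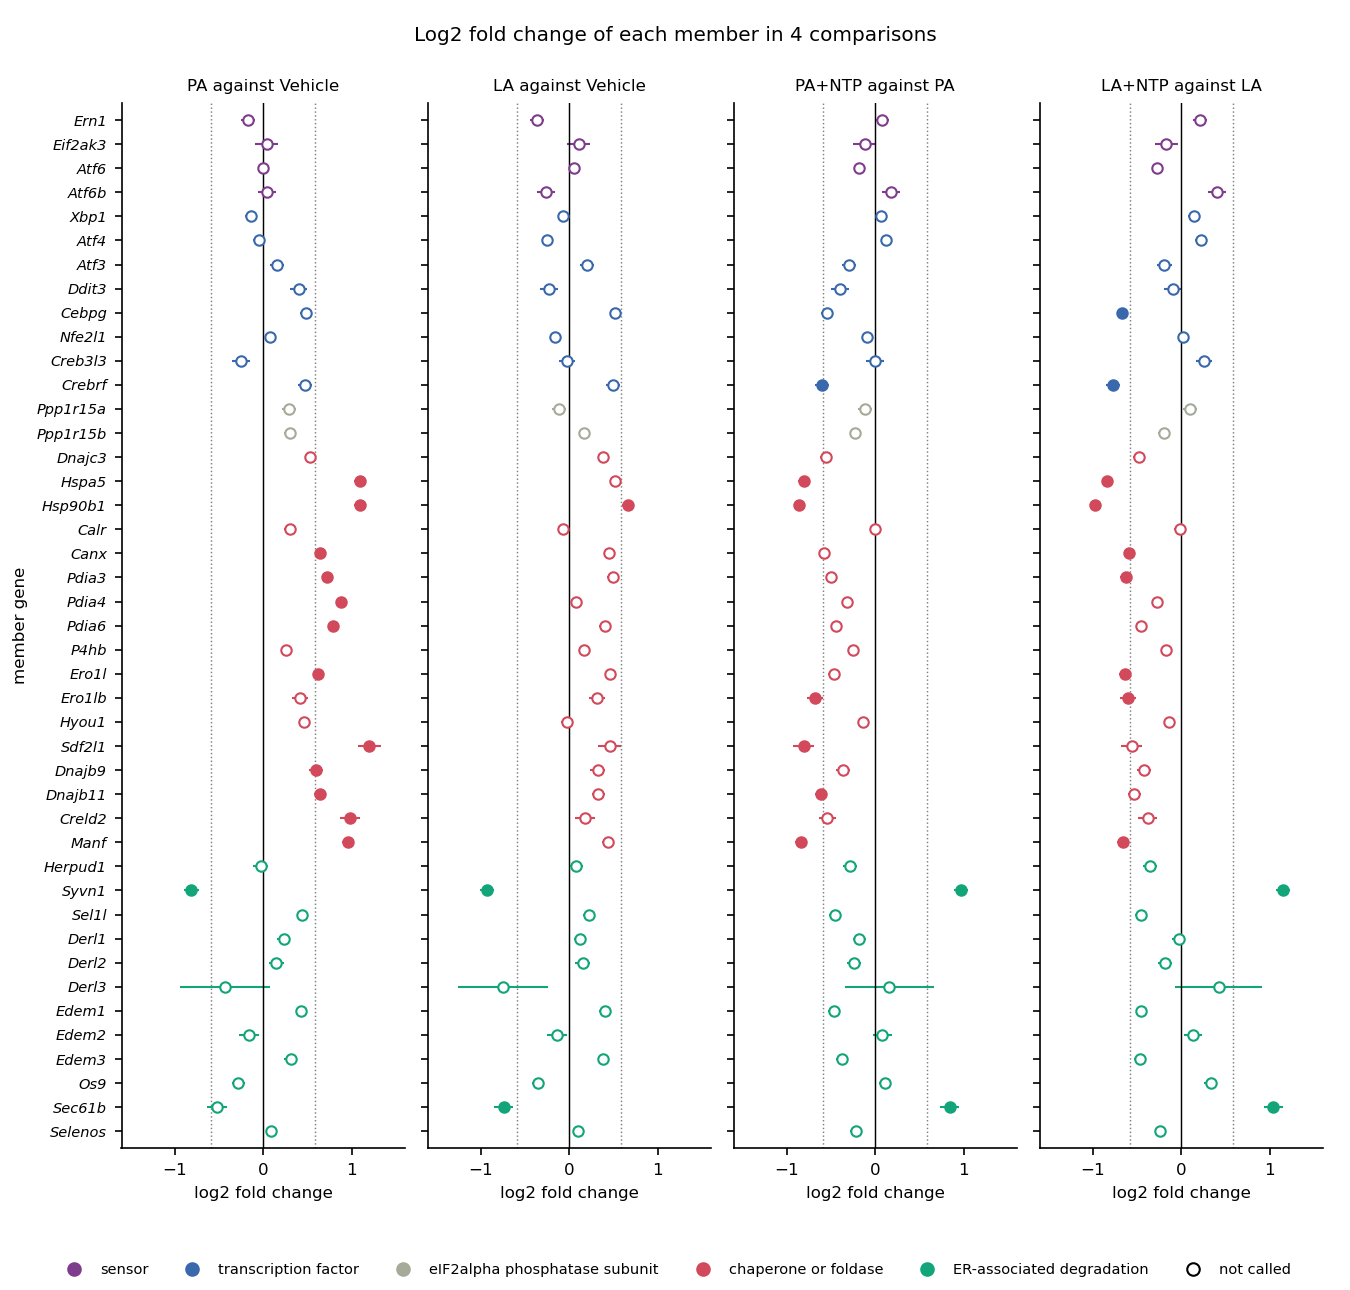
Log2 fold change (point) and SE (bar) of the 43 members in 4 comparisons, coloured by role, with filled points for called members and dotted lines at the 1.5-fold threshold. The 17 chaperones or foldases lie right of 0 with PA and left of 0 or on it with NTP under both FFAs, and Syvn1 and Sec61b lie on the other side.

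PA and LA were also set directly against each other, at doses that differ (200 µM and 12 µM), so that the fatty acid and its dose cannot be told apart. All 17 chaperones or foldases had higher values in PA (median log2 difference 0.37), and 4 of the 43 members were called higher, against 1.18% of all genes, and none lower, against 2.04%. By adjusted p alone 18 members were higher, against 5.59% of all genes, and none lower, against 5.54%. The called members were Creld2 (0.80 ± 0.11, edgeR adjusted p = 0.000295), Pdia4 (0.79 ± 0.06, 1.83e-06), Sdf2l1 (0.74 ± 0.12, 0.00162) and Ddit3 (0.63 ± 0.10, 0.00147). Ddit3 measured 32.53 and 29.07 FPKM in LA, against 53.90 and 43.60 in PA. Its LA values lay below both Vehicle libraries, which did not pass the adjusted p (log2 fold change -0.23, edgeR adjusted p = 0.0910). With the GC trend removed that value was 0.03. The Ddit3 call of PA against LA rested on the first PA library (0.48 without it) and the second LA library (0.55 without it). With the GC trend removed the 4 calls were kept and Hspa5 joined them (0.60), which made 5 higher, against 1.16% of all genes, and none lower, against 1.92%. Syvn1 did not differ detectably (0.11, 95% interval -0.06 to 0.28), nor did Xbp1 (-0.07, -0.20 to 0.05) or Atf6 (-0.05, -0.17 to 0.06).

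The next comparisons asked how far NTP changed the response under each FFA. NTP lowered the chaperones in PA-treated cells. Of the 43 members 7 were called lower in PA+NTP than in PA, against 5.11% of all genes, and 2 higher, against 8.74%. All 17 chaperones or foldases had values at or below 0 (median log2 fold change -0.54), and 15 of them passed the adjusted p. Without the fold threshold 27 members were lower, against 23.0% of all genes, and 2 higher, against 21.7%. This comparison shares its PA libraries with that of PA and Vehicle.

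Hspa5 measured 730.83 and 689.83 FPKM in PA+NTP, against 1183.51 and 1207.09 in PA (log2 fold change -0.81 ± 0.06, edgeR adjusted p = 3.88e-07). Hsp90b1 measured 389.68 and 364.95 (-0.86 ± 0.06), Manf 51.79 and 57.86 (-0.84 ± 0.07) and Sdf2l1 14.80 and 12.48 (-0.81 ± 0.12). In each of these genes both PA+NTP libraries lay between the Vehicle and the PA libraries. Dnajb11, at 46.34 and 45.04 (-0.61 ± 0.07), lay within the range of Vehicle.

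Ero1lb, the second ER oxidase (Ero1b in the current table), measured 4.55 and 4.74 FPKM in Vehicle, 6.44 and 5.84 in PA and 3.94 and 3.99 in PA+NTP (log2 fold change of PA+NTP against PA -0.68 ± 0.09). Crebrf measured 5.26 and 4.81 in PA+NTP (-0.60 ± 0.08). Both lost their calls with the GC trend removed (-0.46 and -0.21), and Creld2 (-0.78) and Ddit3 (-0.67) gained one, so that 7 were again lower, against 2.50% of all genes, of which 5 were called in both. The 2 higher calls were kept, against 3.60%. The Crebrf call was also lost without the second PA library (-0.54) or the second PA+NTP library (-0.57).

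The other chaperones raised by palmitate were lower by adjusted p alone. Creld2 measured 37.14 and 30.03 FPKM in PA+NTP (log2 fold change -0.54), Pdia3 452.92 and 472.31 (-0.50), Pdia6 180.52 and 173.48 (-0.44) and Canx 158.78 and 160.62 (-0.58). Ero1l stood at 16.24 and 16.86 (-0.47), Dnajb9 at 34.25 and 35.56 (-0.36) and Pdia4 at 103.79 and 101.35 (-0.32). None of these 7 reached the fold threshold. Calr (943.86 and 977.25, -0.00) and Hyou1 (33.61 and 30.35, -0.14) were the 2 chaperones that did not pass the adjusted p. Hyou1 passed it once the GC trend was removed (-0.34, edgeR adjusted p = 0.000800), and Ero1l (-0.16, 0.0766) and Dnajb9 (-0.02, 0.879) did not.

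In LA-treated cells NTP lowered 9 members by the call, against 7.57% of all genes, and raised 2, against 11.7%. The lower calls were 7 chaperones or foldases and the factors Crebrf and Cebpg. Without the fold threshold 24 members were lower, against 25.6% of all genes, and 7 higher, against 25.9%. Of the 17 chaperones or foldases 15 passed as lower, all but Calr (-0.02) and Hyou1 (-0.14), and the median was -0.53. Removal of the GC trend left 14 that passed, beside 3927 of all 14097 genes. These now held Hyou1 (-0.39) and not Dnajc3 (-0.15) or Dnajb9, which turned sign (0.02, edgeR adjusted p = 0.905).

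Hsp90b1 measured 250.17 and 258.10 FPKM in LA+NTP against 483.10 and 486.56 in LA, a log2 fold change of -0.97 ± 0.06 (edgeR adjusted p = 4.05e-08). Hspa5 measured 458.54 and 459.19 (-0.84 ± 0.06) and Manf 42.04 and 42.59 (-0.66 ± 0.07). In all 3 genes both LA+NTP libraries lay below both Vehicle libraries as well, although none of them was called against Vehicle.

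The next 4 were nearer to the threshold. Ero1l measured 12.62 and 13.21 FPKM in LA+NTP (log2 fold change -0.64), Pdia3 345.38 and 354.97 (-0.63), Ero1lb 3.88 and 3.71 (-0.60) and Canx 135.70 and 136.01 (-0.59). With the GC trend removed these 4 values were -0.24, -0.49, -0.31 and -0.21 and the calls were lost. The Ero1lb call was also lost without the second LA library (-0.54) or the second LA+NTP library (-0.57), and that of Canx without the first LA+NTP library (-0.58). Crebrf (4.14 and 4.68, -0.77) and Cebpg (18.45 and 18.60, -0.67) lost theirs with the trend removed, at -0.27 and -0.35. Hspa5, Hsp90b1 and Manf kept theirs (-0.72, -0.67 and -0.75), and Sdf2l1 (10.57 and 8.61 FPKM, -0.98), Creld2 (21.30 and 20.79, -0.68) and Dnajb11 (38.99 and 38.25, -0.60) gained one. That made 6 lower calls, against 2.39% of all genes, and the 2 higher calls were kept, against 3.40%.

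Syvn1 and Sec61b were raised by NTP under both FFAs and were the only higher calls among the members. Syvn1 measured 26.43 and 23.95 FPKM in PA+NTP and 25.88 and 25.76 in LA+NTP, above both Vehicle libraries in each case. The log2 fold changes were 0.97 ± 0.08 against PA (edgeR adjusted p = 7.83e-07) and 1.15 ± 0.08 against LA (1.08e-07). Sec61b measured 48.68 and 50.91 in PA, 83.19 and 102.86 in PA+NTP and 87.72 and 92.46 in LA+NTP, with 0.84 ± 0.11 against PA and 1.04 ± 0.11 against LA. All 4 calls were kept with the GC trend removed, at 0.59 and 0.66 for Syvn1 and 0.75 and 0.93 for Sec61b. The first of these lay at the threshold and fell just under it when a replicate block was fitted with the trend removed (0.58). Of the other ERAD genes, Herpud1, an ERSE-II gene and HRD1 cofactor, was lower by adjusted p alone under both FFAs (-0.29 and -0.35), as were Sel1l (-0.46 and -0.46), Edem1 (-0.47 and -0.45) and Edem3 (-0.38 and -0.47). Herpud1 (-0.45 and -0.55), Sel1l (-0.42 and -0.39) and Edem1 (-0.36 and -0.29) still passed with the GC trend removed, and Edem3 did not (-0.14 and -0.15, edgeR adjusted p = 0.127 and 0.0946).

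The size of the NTP effect was compared between the FFAs by its own term. No member was called (edgeR, 0 higher and 0 lower, with 0% of all genes called), and DESeq2 also called 0. The unadjusted p in edgeR lay under 0.05 for 2 of 43 members, beside 1029 of all 14097 genes. These 2 were Ddit3, with a difference of -0.31 (unadjusted p = 0.0496, adjusted p = 0.684), and Os9 (-0.22), named after their values were seen. Differences among the chaperones or foldases ranged from -0.25 to 0.17.

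NTP-treated cells were finally set against Vehicle, to see how much of the response was left. In PA+NTP no member was called, against 1.21% of all genes higher and 1.64% lower. DESeq2 also called 0, and 19 of 43 members had an unadjusted p under 0.05 in edgeR, beside 3476 of all 14097 genes. By adjusted p alone 8 were higher, against 4.50% of all genes, and 2 lower, against 5.61%. All 8 were chaperones or foldases, led by Pdia4 (log2 fold change 0.55 ± 0.06, 1.47-fold, edgeR adjusted p = 4.72e-05), Creld2 (0.44 ± 0.11), Pdia6 (0.35 ± 0.06) and Hyou1 (0.33 ± 0.06). Hspa5 stood 1.21-fold and Hsp90b1 1.17-fold above Vehicle. Without the first Vehicle library, Creld2 was called (0.60). With the GC trend removed no member was called, against 1.19% of all genes higher and 1.62% lower. In the deposited counts the 2 lower members by adjusted p alone were Herpud1 (-0.32 ± 0.08) and Atf6 (-0.18 ± 0.05). Atf6 did not pass with the GC trend removed.

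In LA+NTP no member was called either, against 0.0567% of all genes higher and 0.0355% lower. DESeq2 again called 0, and 21 of 43 members had an unadjusted p under 0.05 in edgeR, beside 2014 of all 14097 genes. By adjusted p alone 2 were lower, against 0.0922% of all genes, namely Hspa5 (log2 fold change -0.32 ± 0.06, adjusted p = 0.0421) and Hsp90b1 (-0.31 ± 0.06, 0.0421), and none higher, against 0.192%. With the GC trend removed neither passed (adjusted p = 0.0957 and 0.134), and no member was called, against 0.0213% of all genes higher and 0.0284% lower. Of the 17 chaperones or foldases 16 had values below 0, with a median of -0.17. By library, the median ratio to the Vehicle mean was 0.872 and 0.897 in LA+NTP, 1.18 and 1.20 in PA+NTP, 1.27 and 1.26 in LA, and 1.55 and 1.59 in PA.

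The wider ER machinery was called at shares near those of all genes with palmitate. A list of 105 further genes of the secretory and stress pathway (translocon and signal peptidase, N-glycosylation, other foldases, other ERAD, COPII and KDEL receptors, ER calcium, other eIF2α kinases and CHOP targets, site proteases and CREB3 family) had 104 genes tested. With PA 7 were higher (6.73%, beside 6.00% of all genes) and 8 lower (7.69%, beside 8.92%), and the list's median log2 fold change was 0.10. With LA 4 were higher (3.85%, beside 3.53%) and 5 lower (4.81%, beside 7.11%). NTP under PA gave 5 higher (4.81%, beside 8.74%) and 6 lower (5.77%, beside 5.11%), and NTP under LA 7 higher (6.73%, beside 11.7%) and 8 lower (7.69%, beside 7.57%). Removal of the GC trend left 3 higher (2.88%, beside 3.68% of all genes) and 3 lower (2.88%, beside 4.78%) for PA. For LA it left 1 higher (0.962%, beside 1.01%) and 2 lower (1.92%, beside 2.26%). NTP under PA kept 1 higher (0.962%, beside 3.60%) and 4 lower (3.85%, beside 2.50%). NTP under LA kept 2 higher (1.92%, beside 3.40%) and 5 lower (4.81%, beside 2.39%).

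The translocon and signal peptidase list held 4 of the 7 higher calls with PA. That was 4 of its 17 genes (23.5%), beside 6.00% of all genes. With the GC trend removed it was 1 of 17 (5.88%), beside 3.68%. Sec11c, a catalytic subunit of the signal peptidase, had a log2 fold change of 0.98 ± 0.10, Spcs3 of 0.84 ± 0.06, Ssr1 of 0.67 ± 0.06 and Spcs2 of 0.63 ± 0.06. The last 3 were under the fold threshold with the GC trend removed (0.49, 0.49 and 0.56). NTP lowered Sec11c under both FFAs (-0.89 and -0.91), and with the GC trend removed the Sec11c values stayed at 0.98 with PA and -0.89 and -0.90 with NTP. Sec61g, which like Sec61b is a small SEC61 subunit, fell with PA (-0.59) and LA (-0.74), and with the GC trend removed it kept the call with LA (-0.68) and not with PA (-0.51). Dad1, a small subunit of the oligosaccharyltransferase, fell with PA (-0.62) and rose with NTP under both FFAs (0.63 and 0.71). With the trend removed these values were -0.54, 0.55 and 0.61, and the last was still called.

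Among the regulators outside the 43, Creb3l2, an ER-bound factor related to ATF6, fell to 0.501 of Vehicle with PA (edgeR adjusted p = 2.25e-07) and to 0.636 with LA and rose with NTP under both (log2 fold change 0.63 and 0.84), and the 4 calls were kept with the GC trend removed. Gadd45a, a growth-arrest gene, rose with PA (0.68) and fell with NTP under LA (-0.66), and kept both calls (0.70 and -0.68). Bbc3 (PUMA), a pro-death BH3 gene linked to CHOP, fell to 0.559 of Vehicle with PA and to 0.500 with LA in the deposited counts, and did not pass with the GC trend removed (log2 fold change -0.18 and -0.30). The ERAD ligase Rnf5 fell with PA (-0.84) and rose with NTP under PA and LA (0.60 and 0.70). With the trend removed it kept the call with PA (-0.69) and lost those with NTP (0.45 and 0.50).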

How the data were processed

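RNA was sequenced from primary mouse hepatocytes in 10 libraries. The authors aligned reads with HISAT and Bowtie2 to mm10 and quantified genes with RSEM, in versions not given in the sources used here. Expected counts are RSEM estimates as deposited by the authors, not normalized between libraries. FPKM values were scaled by the authors for length and depth. Each file lists genes from an FPKM of 0.01 upward, and a gene missing from one was taken as 0 there. Whether counting used strand is not given.

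Expected counts were rounded and fitted with edgeR 4.0.16 in R 4.3.3 (TMM, filterByExpr, quasi-likelihood F test, 5 groups as 1 factor), with Benjamini-Hochberg adjustment over 14097 genes. SE is the log2 fold change divided by the root of F. Symbols, positions and promoter windows are those of RefSeq on GRCm38.p6. NOISeq, the test of the study, was not run. Alternatives were DESeq2 1.42.0, limma 3.58.1 on log2(FPKM + 1), library-size scaling, no filter, no fold threshold, a loess fit on GC (span 0.4) removed, a replicate block, only the groups compared, and each library left out. The pipeline was tested on simulated data. An exact permutation test of 2 against 2 libraries cannot go below p = 0.333.

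Members called in any comparison of an FFA with Vehicle or of NTP with its FFA were named with FPKM and fold change, sensors and transcription factors with their level, and the other 26 in counts and ranges or by the levels that stood out. The members and lists were chosen with earlier results of these data known, so their directions are a description of these libraries.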

Additional observations from a re-analysis of the deposited data

Results flagged for a closer look

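The effects of PA and LA against the same Vehicle libraries differed by the direct test in 4 members, at doses of 200 µM and 12 µM. The log2 difference, PA minus LA, was 0.80 for Creld2, 0.79 for Pdia4, 0.74 for Sdf2l1 and 0.63 for Ddit3. In the first 3 both PA libraries lay above the LA and the Vehicle libraries. In Ddit3 the LA libraries also lay below Vehicle, a difference that did not pass the adjusted p (edgeR, 0.0910). With the GC trend removed its log2 fold change with LA was 0.03.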

How the results depend on the processing

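The member counts kept their side and were within 1.5 times under DESeq2, library-size scaling, no filter, limma, removal of the GC trend and fits of only the groups compared, although removal of the GC trend changed which members were called. Adjusted p without a fold threshold gave 30 members with PA, 25 with LA, 29 for NTP under PA, 31 for NTP under LA, 18 for PA against LA, 10 for PA+NTP and 2 for LA+NTP against Vehicle. Leaving out a library gave 12 to 13 members with PA, 3 to 3 with LA, 9 to 10 for NTP under PA, 10 to 11 for NTP under LA, 3 to 5 for PA against LA, 0 to 1 for PA+NTP against Vehicle, and 0 elsewhere. Where that left a group with 1 library, it was assumed to vary like the others.

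With the replicate block the counts were 13 with PA, 3 with LA, 9 and 11 for NTP under PA and LA, and 4 for PA against LA, with no count changed. With the replicate block and the GC trend removed they were 12, 2, 8, 8 and 5, and Syvn1 lost its call for NTP under PA (0.58). Deviations of same-numbered libraries correlated between -0.069 and 0.127 over 10 pairs of groups, above 0.1 in 2. With 1 difference per group, these low values cannot show whether the libraries were paired. Of the 40 log2 fold changes that carried a call none reversed, and 14 lost their call with the GC trend removed, 5 with library-size scaling and 7 with limma. Some values without a call did turn sign with the GC trend removed, such as Os9 and Creb3l3 with palmitate. The 2 libraries a group limit changes near 1.5-fold, and the 31 to 83 counts of Derl3 allow no statement on it.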
